A study of Arabidopsis thaliana with 6 samples.

Results

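The 28 genes described here had transcripts in both libraries of the BRXL2 line and almost none in the libraries of the other lines. They were selected on their measured level, CPM, the count of a locus as a share of its library's total and scaled to 1000000 counts. A locus was chosen where it stood at 5 CPM or more in both BRXL2 libraries and at 0.5 CPM or less in all 4 libraries labelled BRX or myrBRX. Of 33602 loci, 38 met these limits (0.113% of loci). Of 16 phloem-related and other loci set aside by name, 10 were among the 38, which left the 28. Since the levels in all 6 libraries chose these genes, their levels are given as a description and nothing is concluded from a test of them. In the strict sense only 3 of the 28 (DOF6, AT5G02440 and AT2G01913) had no count at all outside the BRXL2 line, and the other 25 had between 1 and 16 counts over the 4 other libraries together.

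The libraries came from sorted cells of true leaves of Arabidopsis thaliana, Columbia ecotype, at 9 days post germination, and the series calls them stomatal lineage ground cells, the larger daughters of asymmetric divisions in the leaf epidermis. Each of the 3 transgenic lines gave 2 libraries and carried a YFP fusion: BRXp:BRX-YFP (called BRX), BRXL2p:BRXL2-YFP (BRXL2) or a construct labelled myrBRXp:myrBRX-YFP (myrBRX). Sorting gave about 20000 cells a sample, the gate is not given in the sources used here, and no library without a construct was analysed. Plants had 2 days of cold and then grew at 22 °C with 16 h of light and 8 h of dark. Nothing in the labels ties the 2 libraries of a line to separate cultures. The spread between them may therefore be technical, and p-values measure only that spread.

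Library totals ran from 25817906 to 42113178 counts. A count of 0 allowed up to 0.0712 to 0.116 CPM, the value of 3 counts in each library, which covers counting error only. The locus of BRXL2 stood at 2052 and 1222 CPM in the BRXL2 libraries and at 11.7 to 191 CPM in the other 4. The locus of BRX was lowest in the libraries labelled BRX, at 7.75 and 10 CPM. It stood at 29.7 and 28.3 CPM in BRXL2 and at 27.5 and 67.9 CPM in myrBRX. The BRX level thus did not verify the BRX label, and myrBRX 1 did not exceed the BRXL2 libraries, so the myrBRX label was not verified either. Each direction against these 2 labels carries that doubt. Epidermal markers were present in every library, with a summed level over 6 genes of 904.3 to 8182 CPM, and 9 stomatal lineage genes summed to 343.1 to 2880 CPM. Of these, MUTE, a factor of guard mother cell formation, stood at 17.5 and 9.88 CPM in BRXL2, at 0.968 CPM in BRX 1, at 0 in BRX 2 and at 0.0768 CPM or less in myrBRX. The list as a whole did not have this order. For BRXL2 over BRX-labelled libraries, 4 of the 9 genes had log2 fold changes above 0, with a median of -0.16. Over myrBRX 7 of the 9 did, with a median of 1.16. MUTE passed in neither comparison (adjusted p = 0.486 and 0.225, edgeR's quasi-likelihood test).

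BRX and BRXL2 belong to a small plant family of polarity proteins. In the leaf epidermis they gather at one side of dividing stomatal precursors. In vascular tissue, BRX acts in the phloem, the tissue that carries sugars, where sieve elements conduct and companion cells load them. Dof transcription factors, a plant family with a single zinc finger that binds AAAG, include several regulators of early phloem, and SMXL3 acts together with SMXL4 and SMXL5 in phloem formation. In bulk RNA, fewer cells of a type and less RNA per cell cannot be told apart.

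The number of loci confined in this way differed between lines. With the same limits, 5 loci were found for the myrBRX line (0.0149% of loci) and 0 for the BRX line, against the 38 for BRXL2. Loci at 5 CPM or more in a single library and at 0.5 CPM or less in the other 5 numbered 75 for BRXL2 1 and 17 for BRXL2 2. They numbered 44 for BRX 1, 7 for BRX 2, 4 for myrBRX 1 and 7 for myrBRX 2. BRX 1 thus had 44 loci of its own while the line shared none between its libraries. Of the 8563 loci at 5 CPM or more in both BRXL2 libraries, 8188 were above 0.5 CPM in all 4 other libraries and 26 exceeded that limit in 1 of them, which was BRX 1 for 15. The libraries also differed in breadth. Loci at 0 numbered 13693 and 15022 in BRXL2, 14006 and 14884 in myrBRX and 16379 and 15971 in libraries labelled BRX. The single locus AT1G79245 held 4.83% and 8.96% of counts in BRXL2, 6.89% and 6.13% in myrBRX and 9.81% and 19.7% in libraries labelled BRX. The part of these differences in the numbers of confined loci was not tested.

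**Figure D1:**
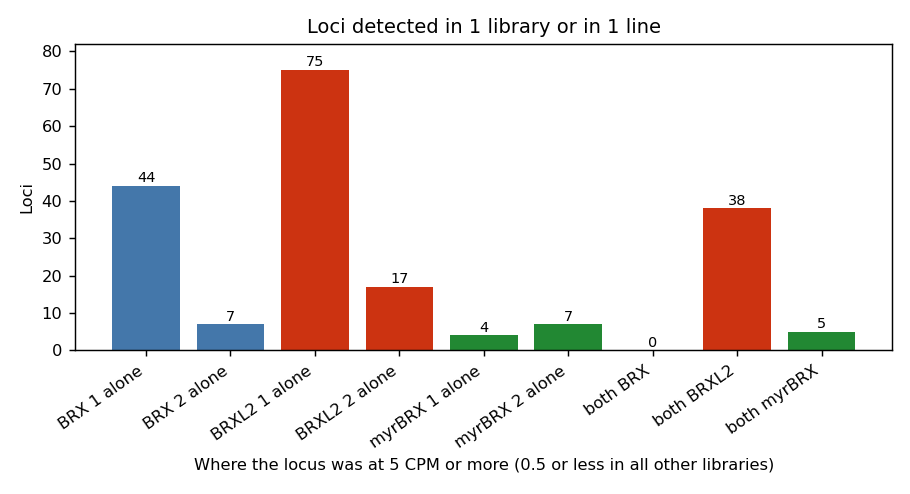
Number of loci at 5 CPM or more in 1 library alone or in both libraries of a line, with 0.5 CPM or less in every other library. BRXL2 1 alone has the tallest bar (75 loci), followed by BRX 1 alone (44) and by both BRXL2 libraries (38), which include the 28 genes and the 10 set aside.

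The stretches upstream of 5 of the genes are shown here because they hold a paired Dof core, and Dof genes are the family with more than 1 member among the 28. The motif searched was a pair of AAAG cores on the same strand with 2 bases between them (AAAG, then NN, then AAAG), on both strands, within 250 bases before the annotated start of the gene, and its matches are in capitals below. Sequences were read 5′ to 3′ on the strand of the gene from RefSeq's TAIR10.1 genome.
AT1G33475, chr1:12148381-12148630, minus strand: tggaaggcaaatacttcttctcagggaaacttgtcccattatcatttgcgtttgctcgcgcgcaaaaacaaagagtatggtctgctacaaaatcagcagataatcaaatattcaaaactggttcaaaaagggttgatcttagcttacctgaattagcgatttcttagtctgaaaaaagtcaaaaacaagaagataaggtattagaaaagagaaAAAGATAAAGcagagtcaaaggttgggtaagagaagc
AT1G70470, chr1:26560124-26560373, minus strand: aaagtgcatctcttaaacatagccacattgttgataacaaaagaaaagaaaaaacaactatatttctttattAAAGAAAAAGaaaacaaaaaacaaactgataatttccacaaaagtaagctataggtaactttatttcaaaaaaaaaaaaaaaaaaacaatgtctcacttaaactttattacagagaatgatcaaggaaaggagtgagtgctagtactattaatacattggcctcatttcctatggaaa
AT2G01913, chr2:422644-422893, minus strand: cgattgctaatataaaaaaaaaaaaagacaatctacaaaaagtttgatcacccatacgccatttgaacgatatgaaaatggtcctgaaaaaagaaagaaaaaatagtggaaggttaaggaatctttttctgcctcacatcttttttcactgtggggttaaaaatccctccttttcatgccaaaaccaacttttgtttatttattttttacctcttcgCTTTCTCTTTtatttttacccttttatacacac
AT4G29100, chr4:14340701-14340950, plus strand: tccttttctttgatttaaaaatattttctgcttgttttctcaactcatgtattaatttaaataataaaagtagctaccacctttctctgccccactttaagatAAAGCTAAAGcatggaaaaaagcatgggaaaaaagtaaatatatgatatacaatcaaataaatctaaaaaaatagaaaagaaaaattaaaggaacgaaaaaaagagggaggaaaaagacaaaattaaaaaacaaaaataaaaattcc
AT5G45540, chr5:18460915-18461164, minus strand: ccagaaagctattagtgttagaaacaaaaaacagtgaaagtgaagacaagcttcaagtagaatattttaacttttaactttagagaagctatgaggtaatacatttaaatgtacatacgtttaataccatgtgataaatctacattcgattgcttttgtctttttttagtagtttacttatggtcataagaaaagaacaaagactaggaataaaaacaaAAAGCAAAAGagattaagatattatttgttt
In AT2G01913 the match lies on the opposite strand and reads CTTT at both ends.

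The paired core was found upstream of 5 of the 28 genes (17.9%), of 6.08% of 26711 protein-coding genes and of 6.45% of 8373 others at 5 CPM or more in both BRXL2 libraries. These shares are a description, and a match is not a binding site. The TATA box (TATAAA) was found for 13 of the 28 (46.4%, against 47.7% of all), the auxin response element (TGTCTC) for 4 (14.3%, against 10.9%) and a NAC core (CACGNAA) for 3 (10.7%, against 7.46%). A W-box (TTGACC) was found for AT1G26730 alone (3.57%, against 12.2%). The G-box (CACGTG), the P1BS element of MYB-CC factors (GNATATNC) and an HD-ZIP type element (CAATNATTG) had 0 matches among the 28, against 6.58%, 5.44% and 0.917% of all promoters. None of these other matches overlapped the paired Dof core in the 5 sequences shown.

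Dof factors and other genes whose product names point to regulation of transcription formed a first group. DAG2 (AT2G46590), a Dof factor known for its role in seed germination, stood at 23.8 CPM in BRXL2 1 and 12.0 CPM in BRXL2 2, at 0.128 CPM in myrBRX 1 and at 0 in the other 3 libraries. DOF6 (AT3G45610), another Dof factor, stood at 16.3 and 6.58 CPM in the BRXL2 libraries and at 0 in all 4 others. For both genes each BRXL2 library lay far above every other library, and BRXL2 1 was the higher of the pair. AIL5 (AT5G57390), an AP2-type factor of the AINTEGUMENTA-like family that acts in embryos and young organs, stood at 21.3 and 10.4 CPM in BRXL2, at 0.409 CPM in myrBRX 1 and at 0 in the other 3. It was the gene nearest to the upper limit of 0.5 CPM. AT4G29100, annotated as a basic helix-loop-helix factor, stood at 50.2 and 7.93 CPM in BRXL2, with 1 count in myrBRX 2 and none in the other 3. AT1G28400, annotated as a GATA zinc finger protein, stood at 271 CPM in BRXL2 1 and at 6.25 CPM in BRXL2 2, a ratio of 43.45. It had 3 counts in BRX 1, 2 in myrBRX 1 and 4 in myrBRX 2. No other gene of the 28 differed as much between the BRXL2 libraries. The transcript closest to AT1G28400 in sequence, AT2G33850, is annotated as an E6-like protein (69.04% identity over 449 bases), so its place in this group rests on its product name.

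AT3G52490, listed as SMXL3, encodes a protein with a double Clp-N domain. It stood at 22.7 and 11.5 CPM in the BRXL2 libraries, with 1 count in myrBRX 2 and 0 in the other 3. Its relatives SMXL4 and SMXL5, which were among the loci set aside, stood at 103 and 27.9 CPM and at 398 and 237 CPM in the BRXL2 libraries, and at 0.461 CPM or less in the other 4. All 3 genes were thus within the same limits, and BRXL2 1 was the higher library for each. AT3G15680, annotated as a zinc finger protein of the RanBP2 type, stood at 19.3 and 8.55 CPM in BRXL2 and had 1 count in myrBRX 2.

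**Figure D2:**
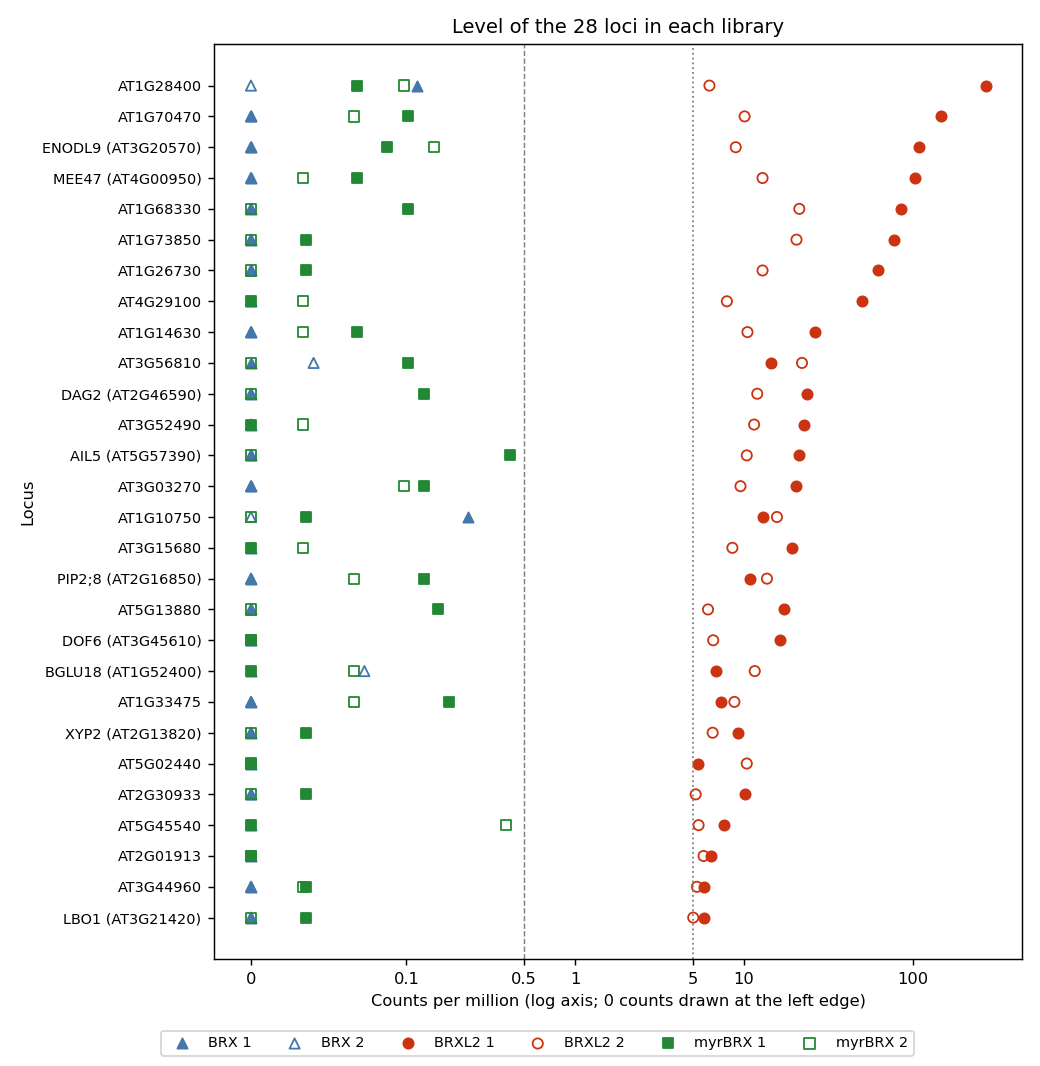
CPM of each of the 28 genes (rows, ordered by the mean of the BRXL2 libraries) in the 6 libraries on a log axis, with counts of 0 drawn at the left edge and lines at 0.5 CPM (dashed) and 5 CPM (dotted), the limits that chose the genes. The upper rows have BRXL2 1 far to the right of BRXL2 2, as for AT1G28400 at 271 and 6.25 CPM, and the lower rows have them close together, as for LBO1 at 5.81 and 5.01 CPM.

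Genes for cell surface and wall proteins formed a second group. ENODL9 (AT3G20570), an early nodulin-like protein of the plasma membrane known from sieve elements, stood at 109 CPM in BRXL2 1 and at 8.95 CPM in BRXL2 2. It had 3 counts in myrBRX 1, 6 in myrBRX 2 and 0 in both libraries labelled BRX. XYP2 (AT2G13820), a xylogen protein that takes part in vascular differentiation, stood at 9.25 and 6.53 CPM, with 1 count in myrBRX 1 and 0 in the other 3. Its BRXL2 libraries were close to each other, unlike those of ENODL9. AT2G30933, with a carbohydrate-binding X8 domain, stood at 10.1 and 5.18 CPM, and AT5G13880, annotated as a cotton fiber protein, at 17.2 and 6.13 CPM. The first had 1 count and the second 6 counts in myrBRX 1, and neither had any in the other 3.

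Membrane and signalling proteins formed another group. AT1G68330, annotated as a membrane-associated kinase regulator, stood at 85.3 and 21.3 CPM in BRXL2, with 4 counts in myrBRX 1 and 0 in the other 3. AT1G26730, of the EXS family that includes the phosphate exporter PHO1, stood at 62.1 and 12.9 CPM, with 1 count in myrBRX 1. PIP2;8 (AT2G16850), an aquaporin of the plasma membrane, stood at 10.9 and 13.7 CPM and was among the 6 genes that were higher in BRXL2 2. It had 5 counts in myrBRX 1 and 2 in myrBRX 2. AT1G33475, a SNARE-like protein, stood at 7.28 and 8.79 CPM, with 7 and 2 counts in the myrBRX libraries. AT5G45540, a putative transmembrane protein, stood at 7.59 and 5.39 CPM, with 16 counts (0.389 CPM) in myrBRX 2 and 0 in the other 3. The distance between the lines was smallest for this last gene, whose lower BRXL2 library was 13.85 times its highest other library.

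A further group encodes enzymes or proteins annotated as such. LBO1 (AT3G21420), an oxygenase of strigolactone synthesis, stood at 5.81 and 5.01 CPM in BRXL2, with 1 count in myrBRX 1. BGLU18 (AT1G52400), a beta-glucosidase that releases abscisic acid from its glucose ester, stood at 6.86 and 11.6 CPM, with 2 counts each in BRX 2 and myrBRX 2. AT1G10750, annotated as a putative carboxyl-terminal peptidase, stood at 13.0 and 15.7 CPM, and its 6 counts in BRX 1 (0.232 CPM) were the most that any of the 28 had in a library labelled BRX. AT3G03270, annotated as an adenine nucleotide alpha hydrolase-like protein, stood at 20.5 and 9.55 CPM, with 5 and 4 counts in the myrBRX libraries. AT1G73850, a protein with a DUF1666 domain whose annotation reads DNA ligase, stood at 77.5 and 20.5 CPM, with 1 count in myrBRX 1. In this group LBO1, BGLU18 and AT1G10750 had BRXL2 libraries less than 2-fold apart, and the other pair had a higher level in BRXL2 1.

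The remaining 7 genes have other or unknown roles. MEE47 (AT4G00950), named for a maternal effect on embryo arrest, stood at 103 and 12.9 CPM in BRXL2, with 2 and 1 counts in the myrBRX libraries. AT1G70470, uncharacterised, stood at 147 and 10.1 CPM, with 4 and 2 counts there. AT3G56810, also uncharacterised, stood at 14.5 and 22.1 CPM, with 1 count in BRX 2 and 4 in myrBRX 1. AT2G01913, likewise uncharacterised, stood at 6.42 and 5.77 CPM and at 0 elsewhere. AT5G02440, annotated as a ribosomal protein L36 of the large subunit, stood at 5.36 and 10.4 CPM and at 0 elsewhere. Its neighbour AT5G02450, of the ribosomal protein L36e family, was present in all 6 libraries at 7.42 to 111 CPM. The Dof gene PEAR2 (AT5G02460), 2 places away from AT5G02440, stood at 11.5 CPM in BRXL2 1, 0.166 CPM in BRXL2 2 and 0.358 CPM in myrBRX 1. AT1G14630, an XRI1-like protein, stood at 26.4 and 10.5 CPM, with 2 and 1 counts in the myrBRX libraries. AT3G44960, annotated as a shugoshin, a protector of chromosome cohesion, stood at 5.78 and 5.27 CPM, with 1 count in each myrBRX library.

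Between genes, levels were compared per kilobase of transcript. On this scale AT1G70470 was the most abundant of the 28 in BRXL2 1, at 192.5 CPM per kb, followed by AT1G28400 at 154.4 and ENODL9 at 120.0. In BRXL2 2 the order differed: AT3G56810 led at 16.2 CPM per kb, with AT5G02440 at 13.3, AT1G70470 at 13.22 and AT1G68330 at 12.22. AT1G28400 was at 3.552 CPM per kb there. AT5G45540 had the lowest level per kb in both BRXL2 libraries, at 2.492 and 1.77 CPM per kb. AT1G70470 was thus near the top in both libraries, whereas AT1G28400 was near the top in BRXL2 1 alone.

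The 2 BRXL2 libraries did not carry these genes equally. The summed level of the 28 was 1177 CPM in BRXL2 1 and 291.5 CPM in BRXL2 2. AT1G28400 made 23.1% of the sum in BRXL2 1 and 2.14% in BRXL2 2, and without it the sums were 905.4 and 285.3 CPM. The level was higher in BRXL2 1 for 22 genes (78.6%), against 60.6% of 8525 other loci at 5 CPM or more in both libraries. The median log2 ratio of BRXL2 1 to BRXL2 2 was 1.02 (quartiles 0.15 and 1.94) for the 28 and 0.32 (quartiles -0.49 and 1.10) for the others. Scaling by TMM factors, which correct for library composition, shifts every locus alike, and the medians became 0.46 for the 28 and -0.24 for the others. More than 4-fold apart were 6 of the 28 (21.4%) and 11.7% of the others, namely AT1G28400, AT1G70470, ENODL9, MEE47, AT4G29100 and AT1G26730. Markers of other cells differed between these libraries too, in both directions. The sum of 10 guard cell markers was 831 CPM in BRXL2 1 and 160.4 CPM in BRXL2 2. TGG1, a myrosinase, made 640 and 83.1 CPM of these sums, and without it they were 190.8 and 77.39 CPM. The list's median was 11.0 CPM in both. KAT1 and SLAC1 were higher in BRXL2 2, and all other guard cell markers with counts in these libraries were higher in BRXL2 1. SCR, a factor of the endodermis and bundle sheath, stood at 126 and 10.9 CPM, and 7 procambium genes summed to 82.29 and 232.8 CPM. The part of such cells in the difference between these libraries was not tested.

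**Figure D3:**
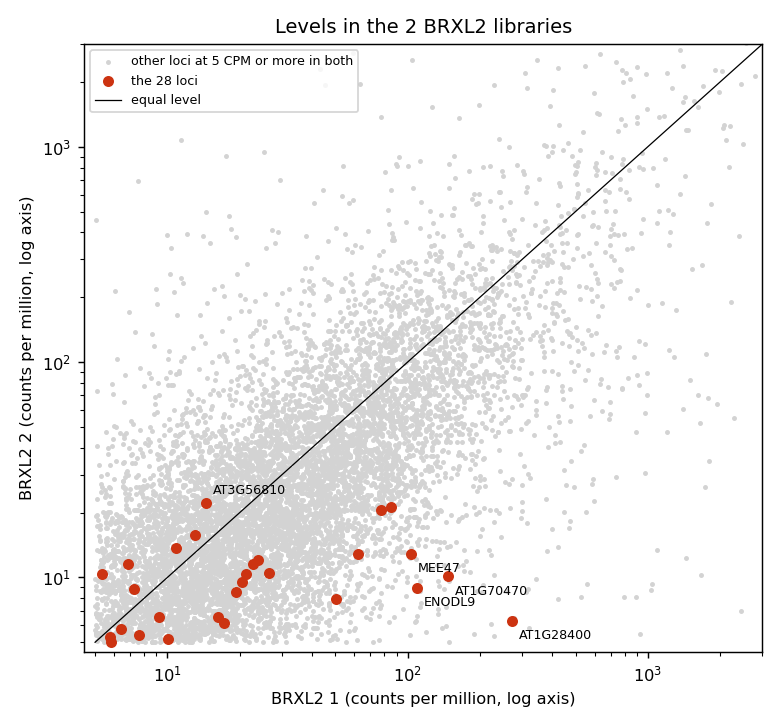
CPM in BRXL2 1 (x) against BRXL2 2 (y), both on log axes, for the 28 genes and for 8493 other loci at 5 CPM or more in both libraries; 42 loci above 3000 CPM in either library lie outside the axes. Most of the 28 lie below the line of equal level, AT1G28400 farthest (271 against 6.25 CPM), while 6 lie above it, AT3G56810 among them (14.5 against 22.1 CPM).

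Outside the BRXL2 line, the few counts of these genes were spread unevenly. Summed over the 28 genes there were 9 counts in BRX 1, 3 in BRX 2, 72 in myrBRX 1 and 44 in myrBRX 2, or 0.349, 0.0845, 1.84 and 1.07 CPM. At least 1 count was found for 2 genes in BRX 1 and 2 in BRX 2, for 20 in myrBRX 1 and for 14 in myrBRX 2. Of the 72 counts in myrBRX 1, AIL5 held 16, and of the 44 in myrBRX 2, AT5G45540 held 16. The rule caps each of these values, and no difference among the 4 libraries was tested.

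Both libraries labelled BRX were at 0 for 24 of the 28. Against 3 counts in each of these libraries, the mean BRXL2 level was at least 53.9-fold higher for LBO1, the lowest, and at least 784.1-fold for AT1G70470, the highest. Without BRXL2 1, the bound of AT1G70470 was 100.8 and that of ENODL9 fell from 589.8 to 89.2. For the 4 genes with counts there, the ratio was 123.4 for AT1G10750 (counting interval, 95% exact Poisson, 56.69 to 336.2), 327 for BGLU18 (90.53 to 2700), 1297 for AT3G56810 (232.7 to 51220) and 2389 for AT1G28400 (817.5 to 11580). The last rested on BRXL2 1 and was 107.5 without that library, below its interval. All intervals here vary only the low counts and leave out the difference between the BRXL2 libraries. The limits that chose the genes made every ratio and bound large, so nothing is concluded from their size. Both myrBRX libraries were at 0 for DOF6, AT5G02440 and AT2G01913, with bounds of at least 152.9-fold, 105.3-fold and 81.4-fold, and that of DOF6 was 87.84 without BRXL2 1. Among the others the ratio over myrBRX was lowest for AT5G45540, at 33.33 (20.53 to 58.32), and for AIL5, at 77.35 (47.63 to 135.3), or 50.7 without BRXL2 1.

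The limits divide a continuous range of levels. The 3 genes just above 5 CPM in their lower BRXL2 library were LBO1 (5.01), AT2G30933 (5.18) and AT3G44960 (5.27). The 3 loci just below it were AT3G27870, a P-type ATPase gene, at 4.96 CPM, GATA20, one of the loci set aside, at 4.58 and AT3G29642 at 4.56. Just inside the limit of 0.5 CPM were AIL5, AT5G45540 and AT1G10750, and just outside were LHCB2.3 with 0.584 CPM in myrBRX 2, the Dof gene AT4G24060 with 0.614 CPM in myrBRX 1 and AT1G07220 with 0.665 CPM in myrBRX 1.

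In the fit across all 18174 genes that passed the filter on low counts, all 28 were included, each of them through the BRXL2 libraries in which it is high. By edgeR's quasi-likelihood test at an adjusted p of 0.05, 6 of the 28 were higher in BRXL2 when set against BRX-labelled libraries (background 0.088% of genes tested, with 0.0055% lower). Only AT1G73850 was higher in BRXL2 when set against myrBRX (background 0.0495%, with 0% lower). The 6 were ENODL9, MEE47, AT1G26730, AT1G68330, AT1G70470 and AT1G73850. Both contrasts chose the genes, so nothing is read from these counts.

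Dof genes were examined through the 21 loci that share 1 product name in the annotation. Dof genes with other names are not in this count, among them the CDF genes, TMO6, which was set aside above, and PEAR1 (AT2G37590), which stood at 18.9 and 4.87 CPM in BRXL2 and at 1.24 CPM in BRX 1. Besides DAG2 and DOF6, 13 of the other 19 were tested, and all 13 had positive fitted log2 fold changes for BRXL2 over BRX-labelled libraries, with a median of 8.10 beside 0.03 over all genes tested. Over myrBRX 11 of 13 were positive, with a median of 4.41 beside 0.15. By edgeR 0 of the 13 passed over all genes in either comparison. At an unadjusted p under 0.05, 9 were higher over BRX-labelled libraries (5.77% of all genes tested) and 7 over myrBRX (6.94%). DESeq2, which tested 17, called 9 higher over BRX-labelled libraries (2.31% of 22526 loci with a count) and 6 over myrBRX (2.99%). A gene absent from 2 lines was tested only if it was high in the remaining line, so these counts and medians include genes that had to differ and support nothing about the family. The same limit and the same shares over all genes hold for the marker lists.

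HCA2 (AT5G62940), a Dof factor of vascular tissue, stood at 90.8 and 36.7 CPM in BRXL2, at 1.36 CPM in BRX 1, at 0 in BRX 2 and at 0.23 and 0.073 CPM in myrBRX (log2 fold change 6.68 ± 1.61 against the libraries labelled BRX, adjusted p = 0.328, edgeR). OBP2 (AT1G07640) stood at 26.2 and 7.57 CPM in BRXL2 and at 0.681 CPM or less elsewhere. AT2G28810 stood at 44.2 and 23.8 CPM, and at 3.21 CPM in BRX 1. These 3 genes had the same high libraries as DAG2 and DOF6 and exceeded 0.5 CPM in 1 other library each. The pattern was not shared by every Dof gene: AT5G65590 stood at 0.895 and 2.48 CPM in myrBRX and at 0.0834 CPM or less in the other 4, and AT1G29160 was at 0.862 to 1.79 CPM in the BRXL2 and myrBRX libraries and at 0 in both libraries labelled BRX.

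**Figure D4:**
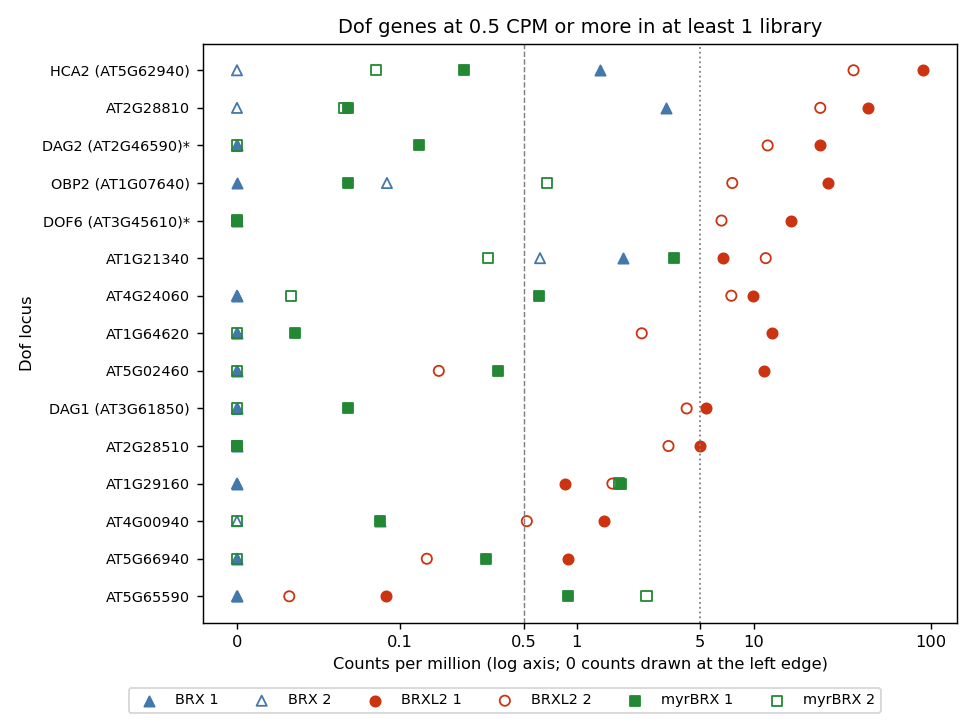
CPM of the 15 Dof genes that reached 0.5 CPM in at least 1 library, in the 6 libraries on a log axis, with counts of 0 at the left edge and lines at 0.5 CPM (dashed) and 5 CPM (dotted); DAG2 and DOF6 are starred. HCA2 and AT2G28810 have the highest BRXL2 levels but each has a point of BRX 1 above 0.5 CPM, at 1.36 and 3.21 CPM.

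The closest other transcript of each gene was sought by sequence. For 18 of the 28 a similar transcript was found, at 66.14% to 98.56% identity over the aligned bases, and for 10 none was. DAG1, the closest to DAG2 (74.6% identity over 567 bases), stood at 5.36 and 4.18 CPM in BRXL2, at 0.0512 CPM in myrBRX 1 and at 0 in the other 3. TMO6, the closest to DOF6 (69.97% over 716 bases), stood at 44.2 and 22.5 CPM in BRXL2 and at 0 elsewhere. AT1G23530, the closest to AT1G70470 (76.45% over 361 bases), stood at 5.45 and 3.16 CPM and at 0 elsewhere. AT2G01990, the closest to AT1G14630, stood at 2.0 and 2.14 CPM, and AT2G20100, the closest to AT4G29100, at 0.695 and 0.309 CPM, both at 0 elsewhere. These 5 of 18 (27.8%) were present in both BRXL2 libraries and at 0.1 CPM or less in the other 4, a pattern of 1.41% of all loci. The limit of 0.1 CPM was chosen after these values were seen. TMO6 itself met the rule and was among the loci set aside, and all loci include many with no counts. Nothing is read from the 2 shares.

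Other relatives were present in all lines. AT5G57710, another gene with a double Clp-N motif and the closest to AT3G52490 (66.14% over 378 bases), stood at 171 to 708 CPM in the 6 libraries. PIP3 (AT4G35100), an aquaporin gene at 83.94% identity to PIP2;8, stood at 37.0 to 200 CPM in the 6 libraries, and its BRXL2 libraries, at 200 and 144 CPM, overlapped those labelled BRX, at 192 and 130 CPM. AT5G45480, the closest to AT5G45540, stood at 8.55 to 91.4 CPM. The highest identity was that of XYP2 to CCL (AT3G26740), 98.56% over 208 of the 1085 bases of the XYP2 transcript. CCL stood at 3.06 to 23.8 CPM in the 6 libraries, including the 4 in which XYP2 had 1 count in all. For 5 genes (AIL5, BGLU18, LBO1, AT1G26730 and AT1G28400) the closest transcript was at 0.5 CPM or less in all 6 libraries.

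The 28 genes were scattered through the genome, with 9 on chromosome 1, 5 on chromosome 2, 8 on chromosome 3, 2 on chromosome 4 and 4 on chromosome 5. None of their 112 neighbours within 2 places met the same limits. Of 56 immediate neighbours, 12 were at 5 CPM or more in both BRXL2 libraries and 25 were at 0.5 CPM or less in both. Of the genes, 3 overlap a locus on the opposite strand: ENODL9 with PDIL5-3 over 46 bases, AT1G10750 with AT1G10747 over 24 bases and AT1G33475 with AT1G33470 over 21 bases. AT1G33470 stood at 635 CPM in BRXL2 1 and at 11.9 to 105 CPM in the other 5, and without the strand setting reads from the overlap of the pair cannot be told apart.

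All 28 encode proteins. Their longest annotated transcripts had a median of 1554 bases (quartiles 1191 and 2171), against 2036 (1533 and 2736) for the other loci at 5 CPM or more in both BRXL2 libraries. They had a median of 3 exons against 6, and a GC content of 39.5% (quartiles 37.7% and 41.4%) against 41.8% (40.5% and 43.1%). A symbol was listed for 9 of the 28 (32.1%) and for 51.2% of the others.

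Markers of other cells were read beside these genes. Of 17 sieve element and protophloem genes listed, 7 met the limits themselves, SMXL3 being the member described here. The 10 others summed to 493 and 107.9 CPM in the BRXL2 libraries and to 19.75 to 47.37 CPM in the other 4. How often other sets of loci have sums in such an order was not counted, so nothing is read from it. SEOR1, one of the loci set aside, made 334 and 45.7 CPM of the sums, and without it they were 158.6 and 62.24 CPM against 19.16 to 45.93 CPM. OPS was highest in myrBRX 1, at 32.6 CPM, MAKR5 stood at 2.32 to 11.6 CPM across the lines, and NEN4, a nuclease of sieve element maturation, was at 0 in all 6. By edgeR, 8 of the 10 were tested, and SEOR1, a sieve element filament protein, was higher than in myrBRX (log2 fold change 9.50 ± 1.39, adjusted p = 0.0472), a call lost with RLE size factors and with a stricter filter on low counts. Over BRX-labelled libraries 0 passed, with 3 higher at an unadjusted p under 0.05 (5.77% of all genes) and 1 called by DESeq2 (2.31%). Over myrBRX 5 were higher at an unadjusted p under 0.05 (6.94%), and DESeq2 called 4 (2.99%). A list of 9 companion cell genes summed to 150.6 and 91.63 CPM in BRXL2 and to 3.578 to 13.63 CPM elsewhere. Most of the BRXL2 sums came from AHA3, a proton pump that was among the loci set aside, at 116 and 84.8 CPM. Without AHA3 the sums overlapped, at 34.85 and 6.791 CPM in BRXL2 against 1.972 to 13.4 CPM elsewhere. SUC2, the sucrose transporter of companion cells, stood at 1.33 and 2.73 CPM in BRXL2, at 12.8 and 1.78 CPM in the libraries labelled BRX and at 2.43 and 7.59 CPM in myrBRX. Of 6 tested, 0 passed by edgeR in either comparison, and 3 (5.77% of all genes) and 2 (6.94%) were higher at an unadjusted p under 0.05. DESeq2 called 3 (2.31%) and 2 (2.99%). FTIP1 and NaKR1 were at 0 in both libraries labelled BRX and passed the filter through other libraries.

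Of the other lists, the procambium and meristem sums were higher in both BRXL2 libraries than in the other 4. The xylem, mesophyll, guard cell and trichome sums overlapped. How often other sets of loci have such an order was not counted, so nothing is read from it. The 10 xylem genes summed to 12.2 and 6.862 CPM in BRXL2 and to 3.582 to 55.23 CPM elsewhere, with the highest sum in BRX 1. The 7 procambium genes summed to 82.29 and 232.8 CPM in BRXL2 and to 20.54 to 32.39 CPM elsewhere. Mesophyll genes summed to 1020 and 527.4 CPM in BRXL2, within the range of 219.3 to 1212 CPM elsewhere, and 10 guard cell genes to 831 and 160.4 CPM, within 134.2 to 831 CPM. The guard cell overlap came from TGG1. Without TGG1 the sums did not overlap, at 190.8 and 77.39 CPM in BRXL2 against 36.63 to 73.12 CPM elsewhere. Trichome genes summed to 3.326 to 15.57 CPM, seed genes to 0 to 0.214 CPM, and meristem and boundary genes to 8.087 and 3.894 CPM in BRXL2 against 0.657 CPM or less elsewhere. Of 7 root genes, 5 were at 0 in each library, and SCR made most of the sum. By edgeR only TGG2 of these lists passed, a myrosinase of guard and myrosin cells that was among the loci set aside by name. It was higher in BRXL2 than in myrBRX (log2 fold change 9.33 ± 1.29, adjusted p = 0.0365, edgeR), a call lost with the stricter filter. Of the guard cell genes, 3 were higher over BRX-labelled libraries at an unadjusted p under 0.05 (5.77% of all genes), and DESeq2 called 2 (2.31%). GORK, a potassium channel of guard cells, was at 0 in all 6 libraries. The part that cells of these types had in the levels of the 28 genes was not tested.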

How the data were processed

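Total RNA (20 ng per sample, RIN above 8) went through NuGEN's Ovation kit, which amplifies cDNA, per the labels' protocols. The deposited values are raw counts per locus, 1 library per table, with 25817906 to 42113178 counts a library; every value is a whole number. The submitters' processing notes name Bowtie2 and the build TAIR10. How reads were assigned to loci, by strand or when aligned to several places, is not given in the sources used here. Of 33602 loci, 32835 were found in RefSeq's TAIR10.1 annotation, whose nuclear sequence is that of TAIR10, and 10654 had a symbol.

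Genes were chosen on CPM of library totals. The genes and lists were chosen with earlier results of these data known. All 28 genes are named, as the rule for named genes asks where 40 or fewer remain. Other loci belong to a list or were chosen after their values were seen. PEAR1 and PEAR2 did not match the annotation by symbol and were left out of their list. PEAR2 is the Dof gene AT5G02460, at 11.5 CPM in BRXL2 1 and 0.166 CPM in BRXL2 2, and it is among the Dof genes tested. EdgeR 4.0.16 under R 4.3.3 (filterByExpr with a minimum of 10 counts, TMM, 1 coefficient per line, 6 libraries, 3 residual degrees of freedom, quasi-likelihood test, two-sided) tested 18174 genes, with Benjamini-Hochberg adjustment at 0.05 and a common dispersion of 0.781. It was also run on simulated counts with large changes and a dispersion shared by all genes. These libraries differ from that setting, so that run does not show how the test performs here. Alternatives were other limits, scalings and filters, DESeq2 1.42.0, a replicate block and leaving out each library. List sums without their leading gene, ratios without BRXL2 1 and the TMM-scaled median of the other loci were added after seeing the data. Similar transcripts were sought with BLAST 2.17.0 (blastn, E-value up to 1e-10). Intervals and floors cover counting error only, because reads copied during amplification cannot be told from separate molecules.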

Additional observations from a re-analysis of the deposited data

How the results depend on the processing

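The number of genes that met the rule, 28, was 26 with TMM-scaled CPM (24 of them among the 28), 29 with totals that leave out organelle loci and 37 with a limit of 1 CPM in the other libraries. It was 12 with 10 CPM or more in both BRXL2 libraries, 75 with 2 CPM or more, and 15 with 0.1 CPM or less in the other 4. Leaving out each library gave 29 to 151 genes, since fewer libraries then had to meet a limit: 60 without BRXL2 1, 151 without BRXL2 2 and 43 without BRX 1. The mean BRXL2 level of each of the 28 moved by less than its SD between libraries under both scalings, and the TMM-scaled mean was 0.772 to 1.0 times the unscaled one. Where the BRXL2 libraries differed widely, that SD could hardly be exceeded, as for AT1G28400 with 187.5 CPM on a mean of 138.8 CPM. Nothing is concluded from this for such genes.

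The counts of genes called moved with most settings. Between BRXL2 and the libraries labelled BRX edgeR called 17 genes, 18 with RLE size factors, 403 without a filter and 4 with a stricter one (1 CPM or more and 10 counts in at least 2 libraries), and DESeq2 called 722. Between BRXL2 and myrBRX the counts were 9, 5, 657 and 0, with 1164 by DESeq2; the 0 had 2093 genes at an unadjusted p under 0.05. Leaving out each library gave 6 to 221 and 24 to 119 genes. With a replicate block the counts were 33 and 42. The replicate numbers do not pair the libraries by any label, and deviations of same-numbered libraries correlated across genes at 0.0581 to 0.127. The causes of these changes were not tested.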
